A study of Harpegnathos saltator with 22 samples.

Results

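The ovaries of workers of the ant Harpegnathos saltator after siRNA against Kr-h1 were compared with the ovaries of workers given siRNA against GFP as the control. The libraries were chosen by their titles, which name the caste and the siRNA target: 4 mature workers with Kr-h1 siRNA and 5 mature workers with GFP siRNA, 9 of the 22 ants in the series. Every ant of both groups was injected in the head with dicer-substrate siRNA in glucose with a transfection reagent, so the controls carry the injection as well, and its ovaries were taken 24 h later. Each library holds polyadenylated RNA from the ovaries of 1 ant. The labels give no strain, colony or age beyond mature. The other 13 ants, 7 Kr-h1 and 6 GFP gamergates, are used below only where the workers' response is set against theirs. The values come from the authors' deposited table, which holds for each gene a mean normalized count over the 9 workers, the log2 fold change of Kr-h1 over GFP siRNA and its raw and adjusted p. It holds no value per ant. The level of a single ant and the overlap of the groups are therefore not shown here. In their place, the mean of each group was recovered from the mean count, the fold change and the group sizes, and the standard error (SE) from the fold change and its p-value. A gene is called higher or lower at an adjusted p under 0.05 there.

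Harpegnathos workers differ from those of most ants in that they keep functional ovaries and can mate and lay eggs, as gamergates, once the queen is gone. In an insect ovary, germline cells (oocyte and nurse cells) sit inside a single-layered epithelium of follicle cells, which signals to the oocyte, makes ecdysteroids and in the last stages secretes the eggshell. Muscle, trachea and a basement membrane wrap the ovarioles. Kr-h1 (Krüppel homolog) is a zinc-finger transcription factor that is induced by juvenile hormone and also by ecdysteroids, and it is best known for keeping insect larvae from starting metamorphosis. The comparison asks what its knockdown changes in the ovary of an ant that has stayed a worker.

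After Kr-h1 siRNA, worker ovaries had more RNA of the ecdysteroid enzyme genes dib and sro, the neuropeptide gene Dsk and the ER gene sel, and less RNA of eggshell genes such as yellow-g and ndl, of 8 of 27 genes of the extracellular matrix and of the BMP ligand gene gbb. The authors tested 10577 genes, and 520 (4.92%) were called in their deposited table, 236 higher (2.23%) and 284 lower (2.69%). By at least 2-fold, 90 were called higher (0.851%) and 190 lower (1.8%). Taking the raw, unadjusted p under 0.05 instead, 1071 genes were higher (10.1%) and 1342 lower (12.7%). The median log2 fold change was 0.87 among the higher genes and -1.17 among the lower ones, against 0.0104 over all genes tested. The median mean count was 713 for the genes called higher and 198 for those called lower. Fold changes moved with the mean count across the whole table. Below a mean of 100 the median was -0.46 (2683 genes, 21 higher and 96 lower), from 100 to 1000 it was 0.047 (5045 genes, 139 and 152), and above that 0.11 (2849 genes, 76 and 36). With this trend removed, 138 of the 236 and 150 of the 284 stayed called. The part of abundance in the results was not tested, and genes that lose their call without the trend are named as such below. The median recovered SE was 0.21 on the log2 scale in the comparison of 9 workers and 0.13 in that of 13 gamergates. The reason for this gap was not tested. Of the 520 called genes 145 have a descriptive symbol in RefSeq, 72 higher and 73 lower. The gene and marker lists below were drawn up with earlier results of these data known. Counts of their called members are therefore descriptions, also where the share of all genes tested stands beside them.

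**Figure D1:**
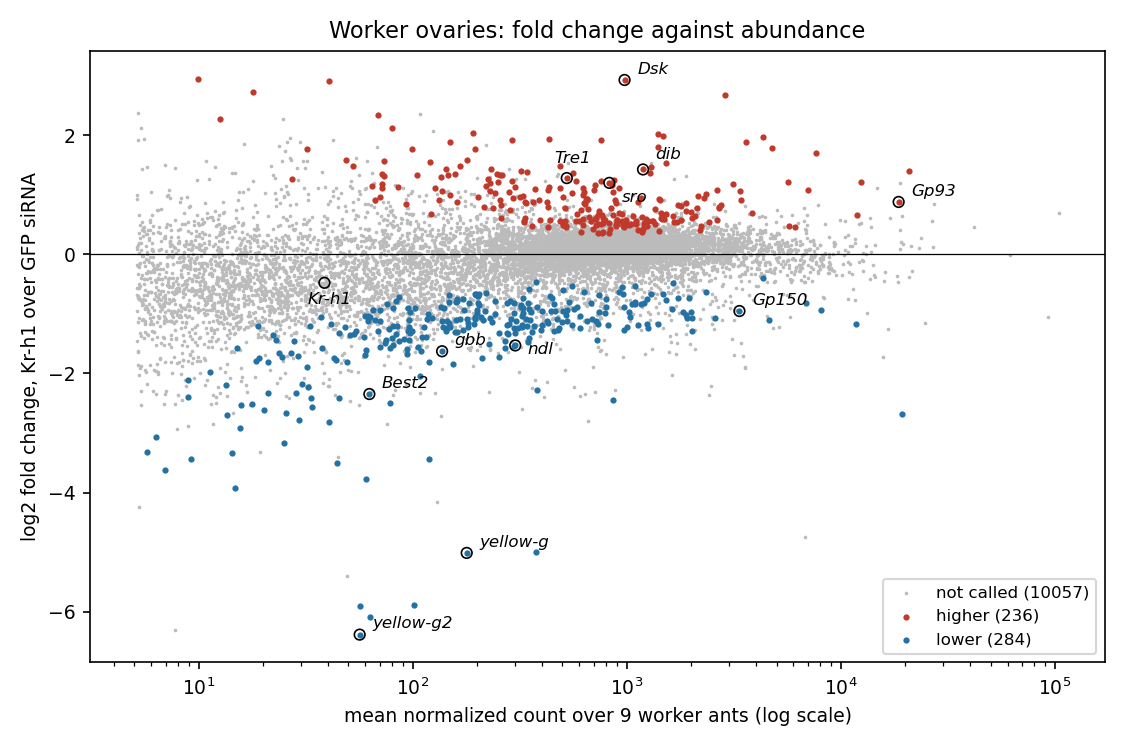
Each point is 1 of the 10577 genes tested in worker ovaries, placed by its mean normalized count over 9 ants (log axis) and its log2 fold change, Kr-h1 over GFP siRNA. The 236 genes called higher and the 284 called lower are coloured, and the cloud of genes below a mean of 100 lies under 0, at a median of -0.46.

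Kr-h1 itself (LOC112589664), the targeted gene, had a low mean count in these ovaries and was not called. Its recovered group means were 44.2 normalized counts in control and 31.7 in Kr-h1 workers. The deposited log2 fold change was -0.48 (recovered SE 0.70, DESeq2 adjusted p = 0.706), with a 95% interval from -1.86 to 0.90. That interval holds falls as well as rises, so neither a knockdown in the ovary nor its absence was detectable. With the abundance trend removed the value was -0.049 (z test on the recovered SE, Benjamini-Hochberg adjusted p = 0.982). The siRNA had been injected in the head, and levels there were not analysed here. As a check of the tissue, the germline RNA helicase gene vas stood at 7632 and 7375 normalized counts in the control and Kr-h1 means, and the germline translation regulator gene orb at 7390.4 and 7662. Neither was called (-0.049 and 0.052 in the authors' deposited table).

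The enzyme genes dib and sro of ecdysteroid synthesis rose together. The gene dib (disembodied, LOC105188651) encodes a mitochondrial cytochrome P450 that hydroxylates the steroid late in the pathway. Its mean went from 680.1 normalized counts in control workers to 1826 in Kr-h1 workers, a log2 fold change of 1.43 (recovered SE 0.28, DESeq2 adjusted p = 0.000273) in the authors' deposited table. The gene sro (shroud, LOC105189472), a short-chain dehydrogenase of the middle steps, went from 525 to 1206, with 1.20 (recovered SE 0.27, DESeq2 adjusted p = 0.0025) in that table. In the RefSeq annotation sro overlaps LOC105189474, which rose as well (1.57 in the deposited table), and dib overlaps a gene at 0.77 that was not called. The strand setting of the authors' counting is not known, so reads of such pairs may have been shared. Of 11 ecdysteroid synthesis genes tested these 2 were higher, beside 2.23% of all genes tested, and none was lower, with a median of 0.07. The enzyme genes sad and shd, which act after dib, stood at 0.083 and 0.07 in the authors' deposited table and were not called. The oxygenase gene nvd, at the entry of the pathway, had a value of -0.94 (DESeq2 adjusted p = 0.184), with group means of 279 and 146. The ferredoxin gene Fdx1, whose product passes electrons to mitochondrial P450 enzymes, stood at 0.38 (DESeq2 adjusted p = 0.136) in the authors' deposited table. The cholesterol carriers Npc1a and Start1 were at 0.054 and 0.039.

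Genes that respond to ecdysone or juvenile hormone did not change detectably. By DESeq2's adjusted p none of 19 tested was called, at a raw p under 0.05 there was 1 in each direction, and their median was -0.12. The ecdysone receptor gene Ecr and its partner usp stood at -0.20 and 0.00094 in the authors' deposited table. The ecdysone-induced transcription factor genes E75 and br were at -0.51 and -0.98, without a call. Nearest to the threshold were Chd64, a calponin-like gene known from the juvenile hormone response of Drosophila (log2 0.46, recovered SE 0.16, DESeq2 adjusted p = 0.0625, in the deposited table), and Eip93F, an ecdysone-induced transcription factor gene of metamorphosis (-0.93, DESeq2 adjusted p = 0.0878, group means 4089.8 and 2146). Hr3 and Hr4, nuclear receptor genes of the ecdysone cascade, differed between the castes. They stood at -0.16 and 0.27 in workers and at -1.83 and -0.86 in gamergates in the authors' deposited table. The differences of 1.67 and 1.12 had adjusted p-values of 0.00393 and 0.00361 (z test on the recovered SEs, Benjamini-Hochberg).

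**Figure D2:**
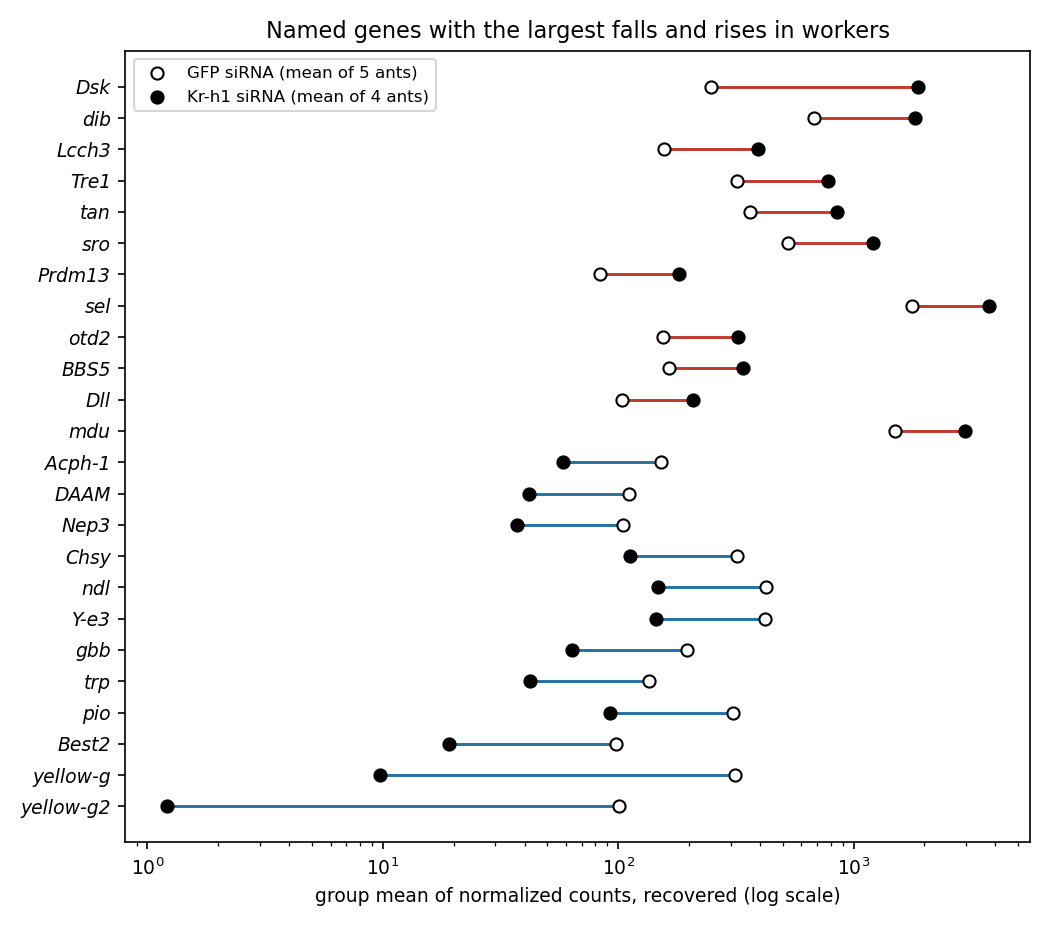
For the 12 named genes with the largest rises and the 12 with the largest falls, open circles give the recovered mean of 5 control workers and filled circles that of 4 Kr-h1 workers, in normalized counts on a log axis. Dsk has the widest rise, from 248 to 1885, and yellow-g2 the widest fall, from 101 to 1.2.

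Some eggshell genes fell, among them a pair of yellow-family genes. In Drosophila yellow-g and yellow-g2 are made by follicle cells in the last stages of oogenesis and are needed for a firm vitelline membrane, the inner eggshell layer. The mean of yellow-g (LOC105186379) went from 314 normalized counts in control workers to 9.71 in Kr-h1 workers, with -5.01 (recovered SE 1.18, DESeq2 adjusted p = 0.00358) in the authors' deposited table. For yellow-g2 (LOC105186378) the means were 101 and 1.2, with -6.38 (recovered SE 1.65, DESeq2 adjusted p = 0.0101) in that table. The SEs of both are among the largest of the named genes, and without values per ant it is not known how many control ants carried this RNA. The serine protease gene ndl (nudel), which follicle cells secrete to prepare the eggshell and the dorsoventral signal, went from 424 to 147 (log2 -1.53, recovered SE 0.31, DESeq2 adjusted p = 0.000317, in the deposited table). It overlaps 3 genes in the RefSeq annotation, none of them called. The gene tsl (torso-like), whose product marks the ends of the egg for the embryo's Torso receptor in Drosophila, went from 567 to 257 (log2 -1.14, recovered SE 0.31, DESeq2 adjusted p = 0.0154, in the authors' deposited table). In all, 4 of 8 eggshell and perivitelline genes were lower, beside 2.69% of all genes tested, and none was higher, with a median of -1.34. This list was drawn up with earlier results of these data known, so the share is a description. Of the other 4, the follicle cell cadherin genes Cad74A and Cad99C stood at -1.74 and -1.05 and were not called. The patterning gene wbl and the vitelline membrane gene fs(1)N had positive values of 0.47 and 0.91 in the deposited table, also without a call, the first at a raw p under 0.05. The summed mean of the 8 was 4486 in control and 4323 in Kr-h1 workers. The labels record no follicle stage, and in whole ovaries fewer late follicle cells and less RNA per cell cannot be told apart.

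Of the fallen yellow genes, 3 lie near each other. In the order of the RefSeq assembly Hsal_v8.6, yellow-g and yellow-g2 are direct neighbours, Y-e3 is 3 places from yellow-g and LOC105186373 6 places. Y-e3, another yellow-family gene, went from 418 to 144 normalized counts (log2 -1.54, recovered SE 0.41, DESeq2 adjusted p = 0.0137, in the authors' deposited table). LOC105186373 was also lower, at -0.91 (a call lost with the trend removed), while LOC105186375 between them stood at -1.09 and was not called. Outside this stretch, Y-f went from 47.1 to 6.89 (-2.77 in that table), a gene chosen after its value was seen. As members of a gene family, yellow genes may share reads, so their single values are uncertain. A second stretch held 4 neighbouring genes that all fell. It ends at LOC105181254, at -4.99 in the authors' deposited table (recovered SE 0.96, DESeq2 adjusted p = 0.000119), with means of 664 and 20.9, and its 3 neighbours had values of -3.07, -2.81 and -2.69. The nearest of them, LOC105181253, has a mean of 6.29, and its call was lost with the trend removed. It overlaps LOC105181254 in the annotation, so that their reads may have been shared. Of 8731 neighbouring pairs with both genes tested, 42 had both called (0.481%), 29 of them both lower, 10 both higher and 3 opposite, and 9 of the 42 pairs overlap.

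**Figure D3:**
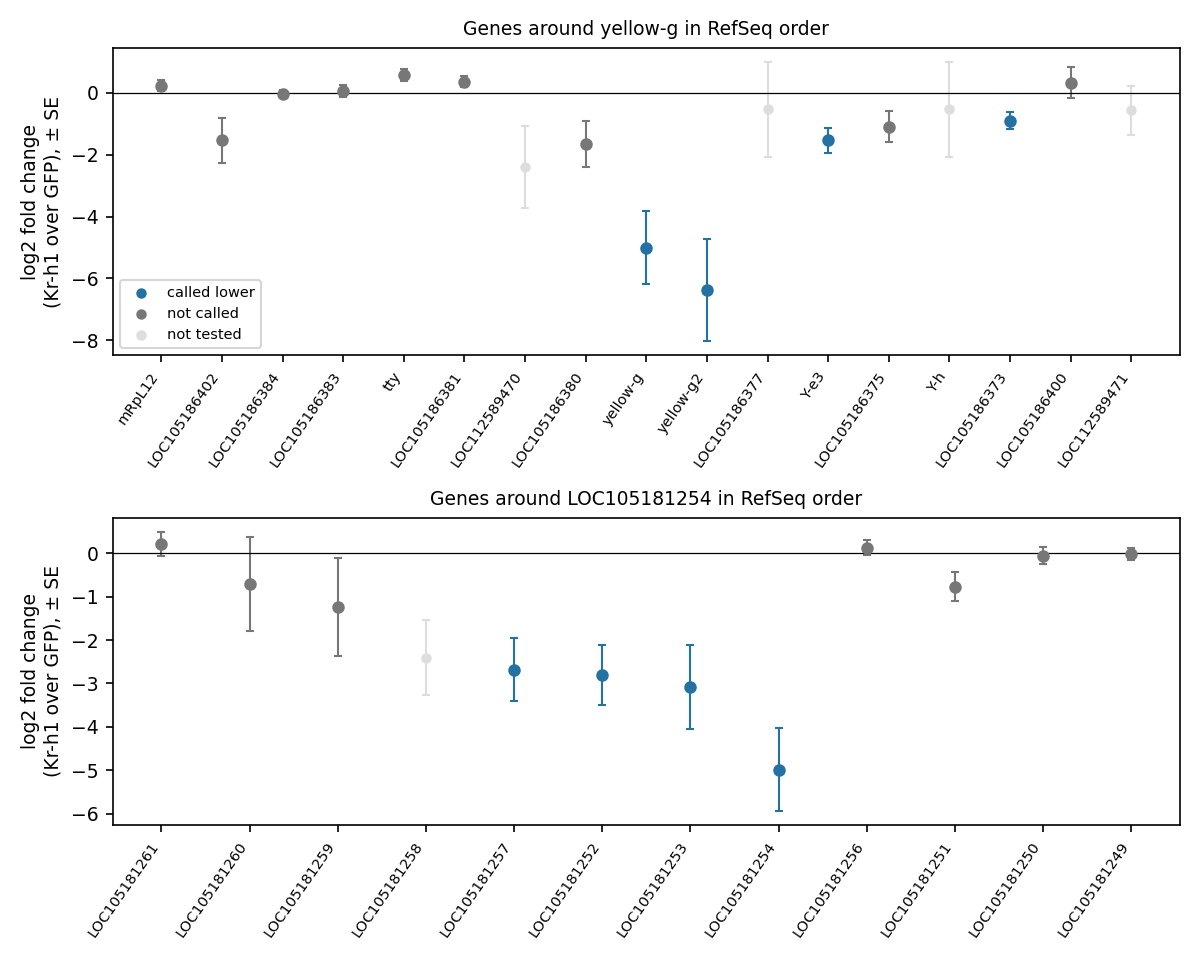
Log2 fold changes in worker ovaries (Kr-h1 over GFP siRNA, ± recovered SE) of the genes around yellow-g and around LOC105181254, in RefSeq order and not to scale. The called genes of each stretch stand next to or near each other, at -5.01 and -6.38 for yellow-g and yellow-g2 and from -2.69 to -4.99 in the run of 4.

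Some genes of the basement membrane and extracellular matrix fell. Of 27 tested, 8 were called lower, beside 2.69% of all genes tested, and none higher. The list was drawn up with earlier results of these data known, so these counts are a description. All 27 had negative values, 15 of them at a raw p under 0.05, and the median was -0.73 against 0.0104 over all genes tested. With the abundance trend removed the median was again -0.73, with 10 members lower. The fallen genes include cell-to-matrix linkers. In Drosophila pio and dpy encode zona pellucida domain proteins that tie epithelial cells to the matrix over their apical side, and pot has the same role in the wing. The mean of pio went from 306 to 92.1 (log2 -1.73, recovered SE 0.47, DESeq2 adjusted p = 0.0143, in the authors' deposited table), that of pot from 401 to 169.6 (-1.24) and that of dpy from 129 to 53 (-1.28, a call lost with the trend removed). With qsm and thw, 5 of 10 zona pellucida domain genes were lower, beside 2.69% of all genes tested, in a list drawn up after their values were seen. With the trend removed pio and pot alone of these 5 stayed called. The integrin gene if (inflated, an alpha subunit) went from 1092 to 481 (log2 -1.18, recovered SE 0.33, DESeq2 adjusted p = 0.0178, in the deposited table). Its beta partner mys stood at -0.71 (DESeq2 adjusted p = 0.0549) and was not called. The chondroitin synthase gene Chsy stood at -1.51 and the metalloprotease inhibitor gene Timp at -0.63 in the authors' deposited table, with Timp means of 2789.8 and 1797. The basement membrane genes proper had negative values without a call: LanA (laminin) was at -0.78, SPARC at -0.80, Col4a1 (collagen IV) at -0.54 and Mmp2, which cuts such proteins, at -0.96 with a DESeq2 adjusted p of 0.0501. With the trend removed, Mmp2, SPARC and mys were called lower as well.

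The values of markers of other tissues that can lie on or between the ovarioles are given beside those of the matrix genes. By DESeq2's adjusted p no muscle marker of 25 was called, while 22 were negative, with 8 falls and 1 rise at a raw p under 0.05, and the median was -0.73. With the trend removed 1 muscle marker was called, the sarcoglycan gene Scgbeta, as higher. The summed mean of the list went from 40716 in control to 27114 in Kr-h1 workers. Myosin heavy chain (Mhc) stood at -1.27 and troponin T (TpnT) at -1.01 in the authors' deposited table. Among 14 fat body markers 1 was lower, the storage protein gene Hex70c (-2.70, a call lost with the trend removed), and the summed mean went from 19459.7 to 11827, with a median of -0.44. Of 6 haemocyte markers 1 was lower, Pvr, with a median of -0.56 and sums of 4945 and 3890.5. Hml, a defining haemocyte gene, stood at -0.21, with means of 337 and 291. Of 34 nerve markers 2 were lower, Fas2 and nAChRalpha2, with a median of -0.19 and sums of 22408 and 18427. Beside the counts of lower fat body, haemocyte and nerve markers stands a share of 2.69% lower over all genes tested. None of 14 trachea and cuticle markers and none of 6 gut markers was called by DESeq2, with medians of -0.50 and -0.045, and at a raw p under 0.05 the first list had 4 lower and the second 0. With the trend removed these medians were -0.19 and -0.17. No list's sum was at 0 in either group. The part of these tissues in the fall of matrix genes was not tested.

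**Figure D4:**
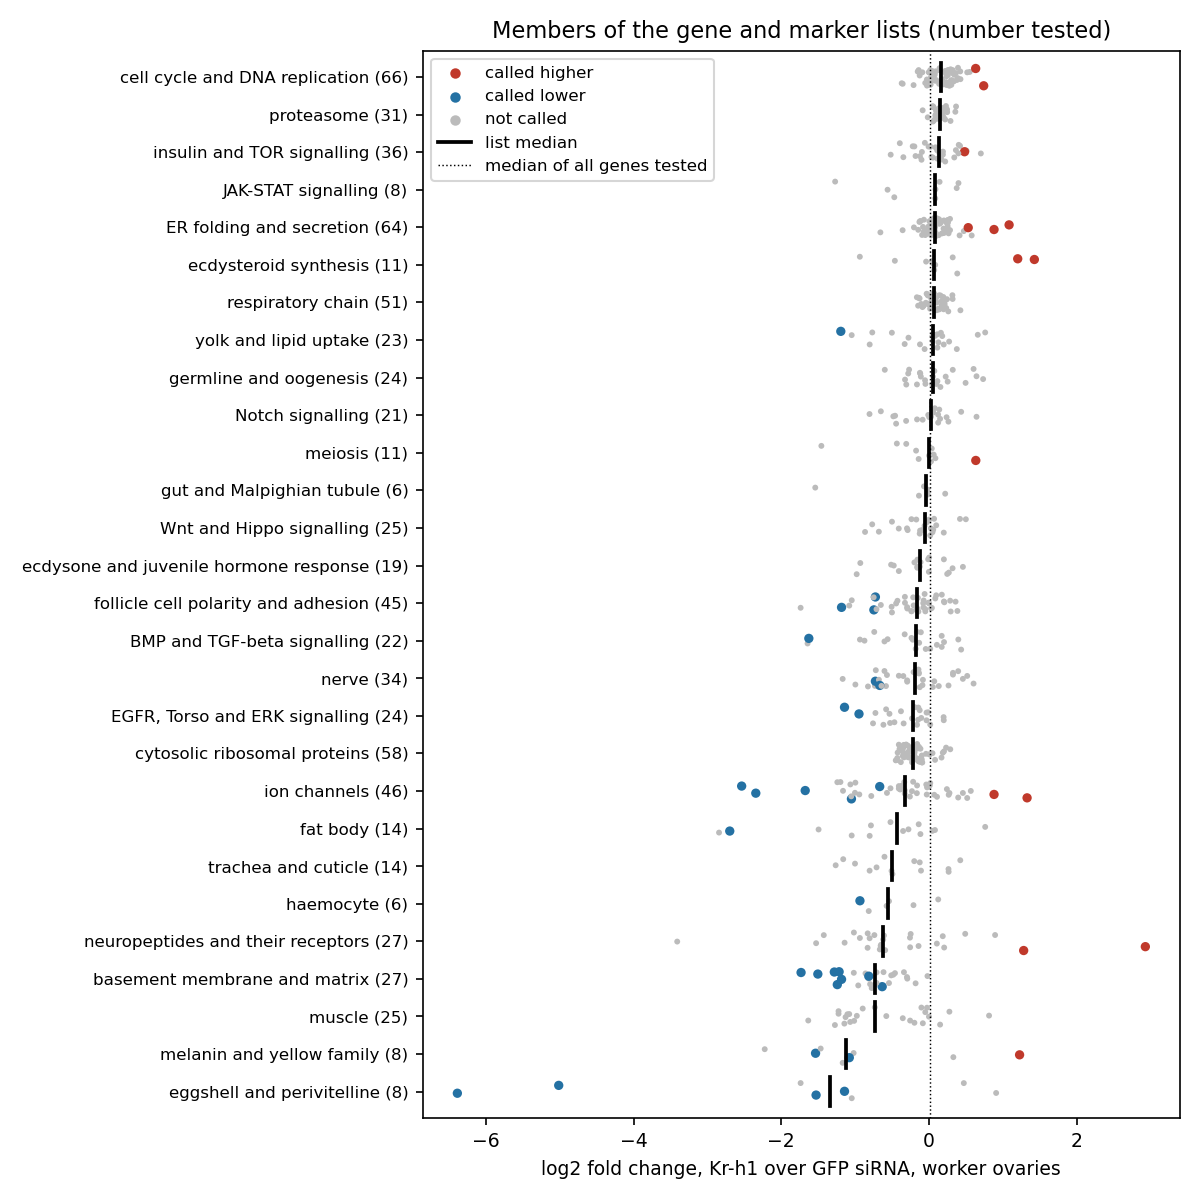
Every tested member of the 28 gene and marker lists, by its log2 fold change in worker ovaries (Kr-h1 over GFP siRNA), with the list median as a bar and lists ordered by it. Eggshell and matrix genes lie to the left, with medians of -1.34 and -0.73, beside muscle at -0.73, and cell cycle genes lie furthest right, at 0.16.

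Some junction and polarity genes of epithelia fell. Of 45 genes of follicle cell polarity and adhesion, 3 were lower, if, Nrx-IV and Fas2, beside 2.69% of all genes tested, and none higher, with a median of -0.17. With the trend removed 7 were lower. Nrx-IV (neurexin IV), a core protein of septate junctions, went from 970.3 to 578 (log2 -0.75, recovered SE 0.23, DESeq2 adjusted p = 0.039, in the authors' deposited table). Fas2, an adhesion protein of the lateral membrane that is also found in nerve, went from 2372 to 1434 (-0.73). A list of septate and lateral junction genes drawn up after the values were seen had 5 of 27 lower, beside 2.69% of all genes tested. They were Nrx-IV, Fas2, pasi1, udt and mesh, and mesh lost its call with the trend removed. The list had 25 negative values. Of these 5 genes pasi1 had the smallest p, at -1.11 (recovered SE 0.26, DESeq2 adjusted p = 0.00292) in the deposited table. The teneurin gene Ten-m, a homophilic adhesion receptor, was lower at -1.21, with means of 1344 and 580.0, and the formin genes DAAM and form3, which build actin filaments, stood at -1.41 and -1.12 in the authors' deposited table, form3 without a call once the trend was removed.

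Among signalling genes, the calls were of single ligands, receptors and transcription factors. The BMP ligand gene gbb (glass bottom boat) went from 196 to 63.4 normalized counts (log2 -1.63, recovered SE 0.38, DESeq2 adjusted p = 0.00292, in the authors' deposited table). It was the 1 called member of 22 BMP and TGF-beta genes, whose median was -0.17, beside 2.69% lower over all genes tested. At a raw p under 0.05 this list had 1 member higher and 4 lower. The BMP antagonist sog and the activin receptor babo stood at -0.94 and -0.56, without a call. In the EGFR, Torso and ERK list, 2 of 24 were lower, tsl and mirr, beside 2.69% of all genes tested. Of its members 21 had negative values, at a raw p under 0.05 there were 0 higher and 6 lower, and the median was -0.21. The homeobox gene mirr (mirror), which EGFR signalling controls in dorsal follicle cells of Drosophila, went from 513 to 266 (-0.95 in the deposited table). The receptor gene Egfr itself was at -0.19. Pvr, a receptor for growth factors of the PDGF and VEGF family that guides border cells in Drosophila, went from 664 to 347 (-0.94 in the authors' deposited table). Jra, the Jun subunit of the AP-1 transcription factor, went from 810.4 to 342 (log2 -1.24, recovered SE 0.32, DESeq2 adjusted p = 0.0103, in that table). The Hox gene Ubx went from 232 to 96.4 (-1.26), a call lost with the trend removed and also with every p-value in the adjustment. Gp150, a leucine-rich repeat membrane protein known from Notch signalling in the Drosophila eye, went from 4273 to 2209 (log2 -0.95, recovered SE 0.22, DESeq2 adjusted p = 0.00323, in the deposited table), and cathD, a lysosomal protease gene, stood at -0.40, a call lost with every p-value in the adjustment. By DESeq2's adjusted p none of 21 Notch, 8 JAK-STAT or 25 Wnt and Hippo genes was called, and with the trend removed dpn was called higher and l(2)gl lower. At a raw p under 0.05 these lists had 1, 0 and 1 members higher and 2, 1 and 2 lower, and their medians were 0.027, 0.085 and -0.061. Members with the smallest p in these 3 lists included l(2)gl (-0.65) and dpn (0.64), dome (-1.27) and zfh1 (-0.56), and fz2 (-0.68) and nkd (0.42), in that order of lists and all in the authors' deposited table.

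The transcription factor genes Dll, otd2 and Prdm13 rose. Dll (Distal-less) went from 104 to 208 (log2 1.00, recovered SE 0.28, DESeq2 adjusted p = 0.0207, in the authors' deposited table), otd2, an orthodenticle homologue, from 154 to 324 (1.07), and Prdm13, a zinc-finger gene known from neurons of vertebrates, from 84 to 182 (1.11). They were named by the size of their change and form no list, and the homeobox genes mirr and Ubx were lower.

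The neuropeptide gene Dsk rose most among named genes. Dsk encodes sulfakinins, peptides related to cholecystokinin that signal satiety in insects. Its mean was 248 normalized counts in control and 1885 in Kr-h1 workers, with 2.93 (recovered SE 0.77, DESeq2 adjusted p = 0.0119) in the authors' deposited table. Tre1, a G protein-coupled receptor gene that guides germ cells in the Drosophila embryo, went from 320.4 to 778 (log2 1.28, recovered SE 0.24, DESeq2 adjusted p = 9.65e-05, in that table). Of 27 neuropeptide and receptor genes these 2 were higher, beside 2.23% of all genes tested, and the other 25 were not called. Their list had 20 negative values and a median of -0.62, with a median mean count of 24.5, and -0.16 once the trend was removed. Of 46 ion channel genes 2 were higher and 5 lower, beside 2.23% and 2.69% of all genes tested. Higher were the GABA-gated chloride channel subunit Lcch3, from 157 to 393 (log2 1.33, recovered SE 0.36, DESeq2 adjusted p = 0.0171, in that table), and stj, an auxiliary calcium channel subunit (0.88). The bestrophin chloride channel gene Best2 fell from 97.5 to 19.2 (log2 -2.35, recovered SE 0.42, DESeq2 adjusted p = 2.97e-05, in the deposited table). The potassium channel genes Elk and Ork1 stood at -2.54 and -1.05, the cation channel gene trp at -1.68 and the acetylcholine receptor gene nAChRalpha2 at -0.67 in the authors' deposited table. Of these, Ork1, trp and nAChRalpha2 lost their call with the trend removed, and the ion channel list then had 2 higher and 2 lower.

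Genes of the dopamine and melanin branch moved in both directions. The gene tan, whose enzyme releases dopamine from its beta-alanine conjugate, rose from 364 to 852 (log2 1.23, recovered SE 0.28, DESeq2 adjusted p = 0.00292, in the authors' deposited table). The gene black, whose enzyme makes beta-alanine, went from 234 to 111 (-1.08, a call lost with the trend removed). The gene e (ebony), whose enzyme forms the conjugate, had -2.22 on means of 18.9 and 4.05 and was not called. The dopamine synthesis genes ple and Ddc were at -1.17 and -1.47 in the deposited table, with SEs of 0.54 and 0.73 and no call. Of 8 genes in the list 1 was higher and 2 lower, beside 2.23% and 2.69% of all genes tested, and the median was -1.12. At a raw p under 0.05, 1 was higher and 6 were lower. With the trend removed 1 was called higher and 1 lower.

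The secretory pathway gave 3 of the calls among higher genes. Of 64 genes of ER folding and secretion 3 were higher, beside 2.23% of all genes tested, and none lower, 46 had positive values, and the median was 0.081. The median mean count of the list was 1563, and all genes tested above a mean of 1000 had a median of 0.11. With the trend removed the list's median was -0.038, with 2 members higher. The gene sel (seele), an ER protein that Drosophila needs to activate a protease of the egg's dorsoventral signal, rose from 1768 to 3746 normalized counts (log2 1.08, recovered SE 0.23, DESeq2 adjusted p = 0.000872, in the authors' deposited table). Gp93, an ER chaperone of the heat shock family, rose from 13542 to 24911 (log2 0.88, recovered SE 0.26, DESeq2 adjusted p = 0.0262, in that table). Ufd1-like, which helps to pull misfolded proteins from the ER, stood at 0.53, a call lost with the trend removed, with centring and with every p-value in the adjustment. The major ER chaperone gene Hsc70-3 was at 0.58 (DESeq2 adjusted p = 0.103) in the deposited table, with means of 8139.8 and 12141. Rab10, a small GTPase that steers basement membrane secretion in Drosophila follicle cells, stood at 0.46 (a call lost with the trend removed).

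Further genes that rose were chosen after their values were seen, so their counts are a description. The genes Galk (galactokinase, 0.97), Galt (0.54) and UGP (0.51), of galactose use, were higher in the authors' deposited table, the last a call lost with the trend removed. Of 24 genes of mRNA deadenylation and decay, 4 were higher, beside 2.23% of all genes tested, the CCR4-NOT subunit gene Not3 (0.71), the oocyte RNA regulator Marf1 (0.81), the decapping enhancer Edc3 (0.67) and btz (0.40), and the median was 0.29. With the trend removed Marf1 alone of these 4 stayed called. Of 15 genes of eye pigment and lysosome-related granules 3 were higher, beside 2.23% of all genes tested, with a median of 0.028. They were cn (0.86), Rab32 (0.91) and or (0.52, a call lost with the trend removed) in the deposited table. Of 37 autophagy and endosomal sorting genes 3 were higher, Atg3, Uvrag and Vsp37A, with a median of 0.11. Of 18 genes of GPI anchors and dolichol mannose 2 were higher, PIG-U and Dpm3, with a median of 0.14. These counts also stand beside 2.23% of all genes tested, and none of these 5 genes stayed called with the trend removed. Of 22 cilium genes 1 was higher, BBS5 (1.04), and 2 were lower, IFT20 and Mks1, beside 2.23% and 2.69% of all genes tested. Both lower calls were lost with the trend removed.

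Few genes of egg growth were called. By DESeq2's adjusted p none of 24 germline and oogenesis genes was called, at a raw p under 0.05 there were 4 higher and 0 lower, and the median was 0.047. The 4 were the mRNA regulators tral (0.64), BicC (0.73), me31B (0.49) and exu (0.60) in the authors' deposited table, and tral means were 15460.2 and 24126. Of 66 cell cycle and replication genes 2 were higher, the mitotic kinase gene polo (0.63, a call lost with the trend removed) and the origin recognition gene Orc4 (0.74), close to the 2.23% of all genes tested, and 55 had positive values. Of 11 meiosis genes 1 was higher, beside 2.23% of all genes tested, the checkpoint gene pch2 (0.63, a call lost with the trend removed). Of 23 yolk and lipid genes 1 was lower, beside 2.69% of all genes tested. It was the megalin gene mgl, a large endocytic receptor, from 1510.3 to 659.8 (log2 -1.19, recovered SE 0.33, DESeq2 adjusted p = 0.0177, in the authors' deposited table). The yolk receptor gene yl had 0.66 on means of 4689 and 7405 and was not called. Of 36 insulin and TOR genes 1 was higher, beside 2.23% of all genes tested, and at a raw p under 0.05 there were 8 higher and 2 lower. It was the translation repressor gene Thor (0.48), a call lost with the trend removed, with centring and with every p-value in the adjustment. The kinase gene Akt was at 0.47 with a DESeq2 adjusted p of 0.0501. Among 58 cytosolic ribosomal, 31 proteasome and 51 respiratory chain genes none was called by DESeq2, and at a raw p under 0.05 they had 0, 2 and 1 higher and 0 lower in each. Their medians were -0.21, 0.15 and 0.067. In the order of these 3 lists, the members with the smallest p included RpS13 (-0.43), Rpt3 (0.37) and NdufV3 (0.42) in the authors' deposited table.

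The remaining named genes belong to no list and were named by the size of their change or its p. DNApol-gamma35, the accessory subunit gene of the mitochondrial DNA polymerase, went from 355 to 693 (log2 0.97, recovered SE 0.21, DESeq2 adjusted p = 0.000895, in the authors' deposited table). It overlaps GatC, a gene for charging mitochondrial tRNA, which stood at 0.77, so that reads of this pair may have been shared. The mitochondrial aspartate aminotransferase gene Got2 was at 0.55, the deoxyribose-phosphate aldolase gene Dera at 0.66 and the dynactin gene Arp10 at 0.60 in the deposited table, the last 2 without a call once the trend was removed. The gene mdu stood at 0.98, likewise a call lost with the trend removed. Among those that fell, the neprilysin protease gene Nep3 and the acid phosphatase gene Acph-1 stood at -1.49 and -1.39 in the authors' deposited table, and both lost their call in the same way. The smallest adjusted p of all belonged to a gene with no descriptive name, LOC105191150, which rose from 852 to 5431 normalized counts (log2 2.67, recovered SE 0.28, DESeq2 adjusted p = 1.57e-17, in the deposited table). LOC105186211 rose from 662 to 2321 (1.81), and LOC105185750 fell from 997 to 542 (-0.88, DESeq2 adjusted p = 2.22e-07 in that table). These 3 were chosen after their values were seen. Of 575 long non-coding RNA genes tested, 8 were higher and 9 lower, beside 2.23% and 2.69% of all genes tested.

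Most genes that changed in worker ovaries had another response in gamergates, the egg-laying workers, whose comparison shares no ant with that of workers. In gamergates 997 genes (8.95%) were higher and 657 (5.9%) lower of 11145 tested. The difference of the 2 responses was tested for 10453 genes and called for 1093 (10.5%), more positive in workers for 551 (5.27%) and more negative for 542 (5.19%). Of the 236 genes higher in workers, 3 were also higher in gamergates, 15 were lower and the rest were not called, and the response differed for 175 (74.2%). Of the 284 lower in workers, 267 were tested in both castes, with 6 lower, 38 higher and 223 not called in gamergates, and the response differed for 163 (61.0%). Since these genes were picked by their worker values, the shares are descriptions. The gene dib was not called in gamergates, at -0.0059 in the authors' deposited table, a difference of 1.43 (SE 0.31, z test, adjusted p = 0.000578). Dsk stood at -0.49 there (difference 3.42, z test, adjusted p = 0.00563). The ER gene sel was higher in workers and lower in gamergates, 1.08 against -0.36 in the deposited table, and the difference was 1.44 (z test, adjusted p = 1.02e-05). Ubx, pot, Ten-m, form3, mirr, Jra and Fas2 went the other way, lower in workers and higher in gamergates, for example -1.21 against 0.97 for Ten-m and -1.24 against 1.21 for pot in the authors' deposited table. Among the named genes, ndl, Chsy, Elk and Acph-1 were lower in both castes. The fall of ndl was the deeper in gamergates, -3.87 against -1.53, and its difference was 2.34 (z test, adjusted p = 0.00393), while for Chsy, Elk and Acph-1 no difference was detected (0.44 with SE 0.77, -0.67 with SE 0.88 and -0.76 with SE 0.46). The yellow genes yellow-g and yellow-g2 stood at -7.54 and -3.59 in gamergates without a p-value, so their difference could not be tested. Of the 27 matrix genes, 12 had a response that was more negative in workers, and of the 64 ER folding and secretion genes 10 had one that was more positive.

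**Figure D5:**
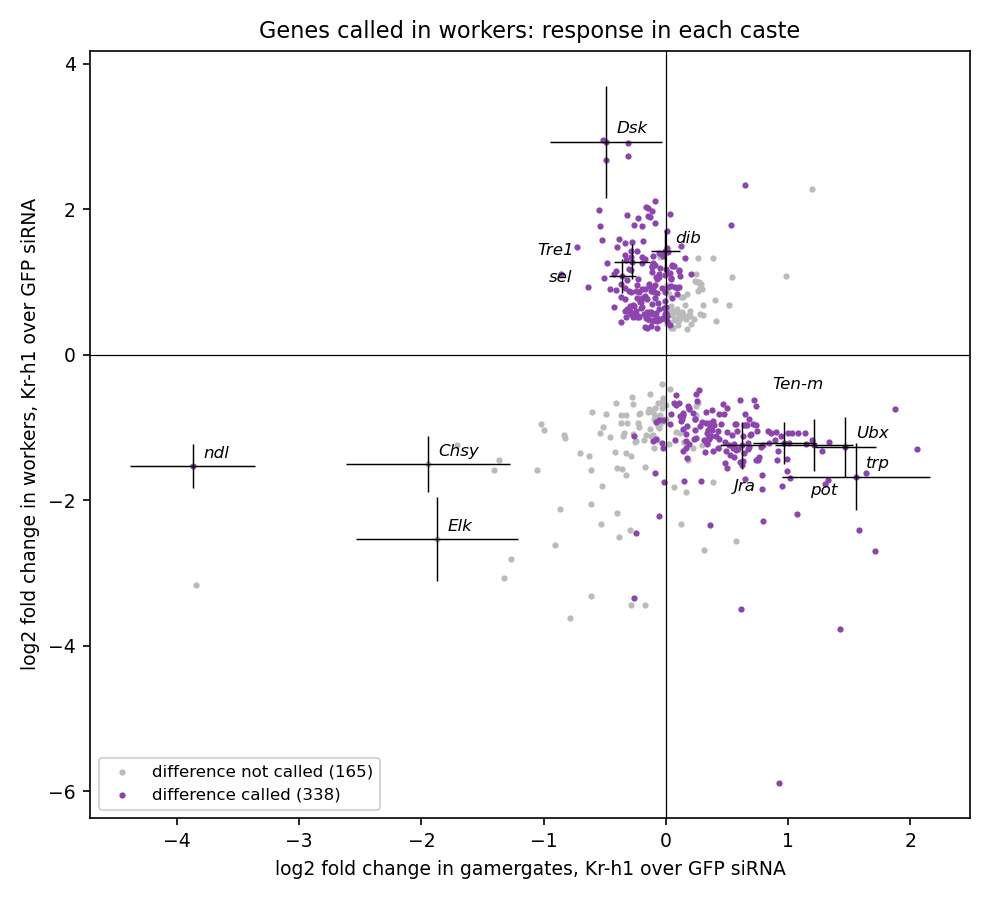
Genes called in worker ovaries and tested in both castes, by their log2 fold change (Kr-h1 over GFP siRNA) in gamergates (x axis) and workers (y axis), with bars of ± recovered SE for named genes and purple for a called difference. Named risers such as dib lie near 0 on the x axis, Ten-m, pot, Ubx and trp lie to its right, and ndl lies far to its left at -3.87.

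The third comparison of the table, control workers over control gamergates, shares the 5 control workers, so its values are set beside the others and not tested against them. These 5 ants enter the 2 comparisons with opposite signs, and the part of this in the values was not tested. The genes called higher in workers had a median of -1.15 between the control groups, and those called lower one of 1.08. Between the control groups, workers over gamergates, dib stood at -1.53, sro at -1.18, Dsk at -4.42, tan at -1.94, sel at -1.60 and Gp93 at -1.72 in the authors' deposited table. Genes that fell after Kr-h1 siRNA in workers had values of 2.63 for Ten-m, 2.84 for pot, 3.72 for Ubx and 1.59 for Fas2 there. The eggshell genes ndl and tsl, which also fell, were at -3.96 and -1.43, and gbb was at -0.77. Elk, Acph-1, Best2 and Pvr, which fell as well, stood at -4.13, -3.21, -1.64 and -1.33.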

How the data were processed

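The libraries of polyadenylated RNA, 1 per ant, keep the strand (dUTP method), per the labels' protocols. Bcl2fastq, STAR, featureCounts and DESeq2 are named in the submitters' processing notes, without versions. Not given in the sources used here are the genome build and annotation, the strand setting and the model. The control target is GFP in the titles and is spelled GRP in the labels' protocol text. The authors' deposited table holds 13693 genes in 3 comparisons, with 4 columns for each: mean normalized count, log2 fold change, p-value and adjusted p-value. There were 0 other columns of values. The depth of a library is therefore unknown, and instead of the planned test on counts the fold changes and adjusted p of the authors were used, as laid down for that case.

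Everything else was computed with Python 3.11.15, pandas 2.3.3, numpy 2.4.6 and scipy 1.17.1. Adjusting the p-values again by Benjamini-Hochberg gave the deposited adjusted p to within 0.00139. It is missing under a mean of about 5.12 in workers, and 88 genes with a fold change have no p-value, Tsf1 among them. SEs were recovered as the log2 fold change over the normal quantile of its p, which assumes a Wald test. Group means follow from mean, fold change and group sizes. Over 8599 genes, the control worker mean from the worker comparison and that from the caste comparison differed by a median log2 ratio of -0.106 with an SD of 0.00606, against an SD of 0.47 with the sign reversed. The castes' responses were compared per gene by a two-sided z test on the recovered SEs, with Benjamini-Hochberg adjustment over 10453 genes. The abundance trend is a running median over 501 genes ranked by mean. On simulated data with 200 changed genes of 10453, a z test for workers recovered 66%, 81% and 87.5% at log2 changes of 1, 1.5 and 2. The test of the difference recovered 55.5%, 73% and 80%. The simulation drew normal errors with the recovered SEs and took these SEs as known. It did not model counts per ant, so these rates do not give the power of the authors' test.

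Gene symbols came from RefSeq Hsal_v8.6, in which 13681 IDs matched and 4117 have a descriptive symbol, those of presumed fly or vertebrate counterparts. No coordinates are given, since the authors' build is not stated. The members, the 28 lists (22 of pathways, 6 of tissue markers) and the rule for named genes were chosen with earlier results of these data known, and 8 more lists after the values were seen. The rule names Kr-h1, up to 12 genes with a mean of at least 50 in each direction, up to 6 called members of each list (or the 2 with the smallest p), the 8 most abundant called genes and up to 6 genes in each direction with the clearest difference between castes. Other genes named were chosen after their values were seen. Of the 81 genes the rule names, 25 overlap another gene in the RefSeq annotation and are uncertain where reads were shared. The p-values set the fold change between the groups against the spread between ants of a group, and that spread is not itself shown. Alternatives were another adjustment, a minimum mean, other thresholds, centring and removal of the trend.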

Additional observations from a re-analysis of the deposited data

Results flagged for a closer look

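The response to Kr-h1 siRNA differed between workers and gamergates for 51 of the 79 named genes with a test of the difference (z test on the recovered SEs, Benjamini-Hochberg adjusted p under 0.05), beside 10.5% of all genes tested. Many of these genes were named by their worker values or by this difference, so the share is a description. The value after each gene below is the worker minus the gamergate log2 fold change, a positive one meaning a more positive response in workers.

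Among hormone and signalling genes, the response was more positive in workers for the enzyme genes dib (1.43) and sro (1.31), for the neuropeptide gene Dsk (3.42), the receptor gene Tre1 (1.56) and Chd64 (0.67). It was more negative for the BMP ligand gene gbb (-1.54), the Wnt receptor gene fz2 (-1.39), and the membrane protein genes Gp150 (-0.99) and Ten-m (-2.18). Among transcription factors it was more negative for Ubx (-2.73), Jra (-1.87), mirr (-1.66), Eip93F (-1.50) and zfh1 (-1.18), and more positive for Prdm13 (1.54).

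The eggshell protease gene ndl differed by 2.34, and fell in both castes, further in gamergates. Among matrix and adhesion genes the worker response was the more negative for pio (-2.02), dpy (-1.26), pot (-2.46), if (-1.35), Timp (-0.89), Nrx-IV (-0.94) and Fas2 (-1.23), for the trachea and cuticle marker verm (-2.10), and likewise for the actin genes DAAM (-1.97) and form3 (-2.06). Of the channel genes, Best2 (-2.70), trp (-3.23), Ork1 (-1.63) and nAChRalpha2 (-0.78) were more negative in workers. So were the storage protein gene Hex70c (-4.41), black (-2.11) and Nep3 (-1.97), whereas tan was more positive (1.34).

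In the secretory pathway and in protein turnover the worker response was more positive for sel (1.44), Gp93 (1.18), Ufd1-like (0.79), Rab10 (0.53), Prosbeta7 (0.60) and Rpt3 (0.51). In mitochondria, replication and metabolism it was so for DNApol-gamma35 (1.33), GatC (1.10), NdufV3 (0.78), Orc4 (0.75), pch2 (0.95) and Dera (1.09). The same held for the translation repressor gene Thor (0.58), the dynactin gene Arp10 (0.93), BBS5 (1.26) and mdu (1.11) and the sarcoglycan gene Scgbeta (0.91). Muscle and fat body marker lists had negative medians in workers (-0.73 and -0.44) and positive ones in gamergates (0.43 and 0.74), and their part in these differences was not tested.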

How the results depend on the processing

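No paired analysis was possible because the deposited table holds no values per ant, and for the same reason no ant was left out in turn. In workers, 66 genes were higher and 53 lower at an adjusted p under 0.01, and 436 and 583 at 0.10. Requiring a 2-fold change left 90 higher. The difference between castes was called for 174 genes (more positive in workers) and 185 (more negative) at 0.01, and for 978 and 937 at 0.10. Under the other settings (adjustment over every gene with a p-value, a mean of at least 50, centring and removal of the abundance trend), the worker counts lay between 193 and 254 higher and between 228 and 304 lower, and no named gene changed direction. Of 58 named genes called, 18 lost the call with the trend removed, 4 under the wider adjustment and 2 with centring, as named above. With the trend removed dpn and Scgbeta gained a call as higher and l(2)gl as lower, and Scgbeta also at a mean of at least 50. The neuropeptide list's median went from -0.62 to 0.11 at a mean of at least 50 and to -0.16 with the trend removed, and that of meiosis from 0.00012 to -0.010 with centring. The medians of 7 lists near 0 changed sign with the trend removed (yolk and lipid uptake, germline, meiosis, Notch, JAK-STAT, ER folding, respiratory chain). The cause of these shifts was not tested. Depth per library is unknown, and the lowest mean tested was 5.12 normalized counts.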
